A study of Mus musculus with 4 samples.

Results

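Among T cells, those of the gamma-delta lineage carry a receptor made of a gamma and a delta chain in place of the alpha and beta chains. The set described here holds 8 of the 31053 features counted in the series. They are the constant gene of the delta chain (Trdc), 3 constant genes of the gamma chain (Tcrg-C1, Tcrg-C2 and Tcrg-C4), the variable segments Tcrg-V6 and Trdv4, the transcription factor Sox13 and the scavenger receptor gene Cd163l1, also known as Scart1. The members were chosen by name, and all 8 were found among the features. Their detection, and which of them occurred in the same barcode, was read in T-cell barcodes and in natural killer (NK) barcodes of each library.

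A gamma or delta chain is encoded by joining a variable (V) segment to a joining segment, after which splicing adds the constant (C) gene. In the mouse each gamma C gene is joined by preference to V segments of its own small cluster, so Tcrg-V6 is known to go with Tcrg-C1, Tcrg-V1 with Tcrg-C4, and the segment listed as Trgv2 with Tcrg-C2. The chain from Tcrg-V6 pairs with the delta chain from Trdv4 in an invariant receptor of tissue T cells that make interleukin-17, and Sox13 and Cd163l1 are known markers of interleukin-17-type gamma-delta T cells. NK cells carry no T-cell receptor, but unrearranged Trdc is known to be transcribed in them.

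The data were single-cell transcriptomes counted at the 5′ end of transcripts, from pre-diabetic female mice in 4 groups with 1 library each. CD45+ leukocytes were sorted from the pancreas at 12 weeks of age (4 mice per group), and CD3 T cells were taken from pancreatic lymph nodes by magnetic selection at 8 weeks (5 mice per group). In each tissue the control genotype was Ocabfl/fl, with floxed alleles of Ocab (Pou2af1, a transcriptional coactivator), and the other was Ocabfl/fl.CD4-Cre, which carries the same alleles and Cre recombinase under Cd4 control. All groups therefore share the floxed alleles, the labels name no strain, and tissue, age and selection differ together, so genotypes were compared only within a tissue. With 1 library per group there is no replicate and no test was possible. Every bracketed range is a 95% interval for counting error only, exact Clopper-Pearson for a share. Where a count was 0, the share it allows is given as 3 counts of the total, which is lower than the Clopper-Pearson limit.

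After filtering, 4025 and 6255 barcodes were kept in the pancreas control and CD4-Cre libraries, and 2848 and 5328 in the lymph node, with medians of 3615 to 4625 unique molecular identifiers (UMIs, counted transcripts). Ptprc, the gene of CD45, was detected in 84.5% and 83.8% of the pancreas barcodes. A barcode with at least 1 UMI of Cd3e, Cd3d or Cd3g is called a CD3 barcode, and there were 2503 and 4307 of these in the pancreas and 2727 and 5252 in the lymph node, control first. A barcode with an Ncr1 UMI (the NK receptor NKp46) counted as an NK barcode; there were 439 and 597 in the pancreas, and 2 in the control lymph node library. The lymph node CD4-Cre library had 0, and by 3 counts this allows a share of up to 0.0563% (Clopper-Pearson limit 0.0692%). Libraries shared 21 to 70 barcode sequences in pairs, at most 1.31% of the smaller library. The targeted gene Pou2af1 was lower in CD3 barcodes of CD4-Cre than of control, at 7.36 against 14.3 CPM (the UMIs of a gene scaled to a common total of UMIs) in the pancreas and 0.159 against 5.99 in the lymph node.

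The similarity of the gamma constant genes limits how their reads can be told apart. In the first exon, which 5′ reads enter from the joined V segment, Tcrg-C1 and Tcrg-C2 were identical at 321 of 330 bases (97.3%), with an unbroken identical run of 71 bases. Tcrg-C1 and Tcrg-C4 were identical at 271 of 330 bases (82.1%), with no identical run over 29 bases. The first 90 bases of these exons are shown in the direction of the gene, with capitals marking bases that differ from Tcrg-C1: 1 base in Tcrg-C2 and 12 in Tcrg-C4. They are from the GENCODE M21 transcripts on GRCm38, at chr13:19214103-19214192 on the + strand, chr13:19307462-19307551 on the - strand and chr13:19344558-19344647 on the + strand.
Tcrg-C1: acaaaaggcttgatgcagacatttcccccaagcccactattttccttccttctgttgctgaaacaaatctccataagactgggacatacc
Tcrg-C2: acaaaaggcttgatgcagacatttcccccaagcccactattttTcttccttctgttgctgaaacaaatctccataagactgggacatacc
Tcrg-C4: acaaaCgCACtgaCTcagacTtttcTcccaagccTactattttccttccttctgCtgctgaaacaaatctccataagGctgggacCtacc
A read within the shared stretches could be counted for the wrong gene, so the split of UMIs between Tcrg-C1 and Tcrg-C2 is uncertain. The third close copy, Tcrg-C3, was identical to Tcrg-C1 at 317 of 330 bases.

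The results below turn on the V segments Tcrg-V6 and Trdv4, whose sequences were not compared with those of other V segments. A stretch of 90 bases from exon 2 of each is given, at chr13:19190621-19190710 and chr14:54075217-54075306, both on the + strand of GRCm38.
Tcrg-V6: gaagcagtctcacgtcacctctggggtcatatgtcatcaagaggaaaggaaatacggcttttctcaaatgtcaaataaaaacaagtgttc
Trdv4: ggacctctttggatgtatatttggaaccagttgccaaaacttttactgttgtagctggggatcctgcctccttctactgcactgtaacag
Trdv4 ends 67336 bases before Trdc, which lies at chr14:54142851-54148868, and Trdv2-2, another delta V segment, ends 181249 bases before it. Sox13 is on chromosome 1 (133382303 to 133424377, - strand) and Cd163l1 on chromosome 7 (140218267 to 140231145, + strand), away from both receptor loci.

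In the pancreas Trdc was the most widely detected member, and most of its barcodes also held Ncr1. There, 316 kept barcodes of the control library and 384 of CD4-Cre had a Trdc UMI, and 69.6% and 68.5% of them were NK barcodes by their Ncr1 UMI. Among CD3 barcodes without Ncr1, Trdc was detected in 93 of 2236 in control (4.16%, 3.37 to 5.07) and in 118 of 3935 in CD4-Cre (a share of 2.999%, 2.49 to 3.58). Among CD3 barcodes with Ncr1 it was detected in 150 of 267 (56.2%, 50 to 62.2) and in 193 of 372 (51.9%, 46.7 to 57.1). Barcodes with Ncr1 and no CD3 UMI held it in 70 of 172 (40.7%, 33.3 to 48.4) and 70 of 225 (31.1%, 25.1 to 37.6).

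In each pancreas library both Ncr1 classes thus held Trdc far more often than CD3 barcodes without Ncr1, with intervals that did not overlap. B-cell barcodes held Trdc in 1 of 894 and 0 of 1291, and myeloid barcodes in 2 of 358 and 1 of 320, at medians of 3563 and 3426 UMIs for B and 7656.5 and 8992 for myeloid. The medians were 4909 and 5187 UMIs in CD3 barcodes with Ncr1 and 3432.5 and 3509 in those without. After each barcode was thinned to 1000 UMIs, the shares were 20.5% and 15.1% with CD3 and Ncr1, 15.9% and 8.48% with Ncr1 alone and 2.29% and 1.05% with CD3 alone, in the same order. The deeper CD3 barcodes with Ncr1 may include doublets left after filtering, and their part was not tested.

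Tcrg-C1 and Tcrg-C2 followed a different distribution, and Tcrg-C4 did so only in part. Tcrg-C1 was detected in 35 and 37 CD3 barcodes with Ncr1 but in 0 of 172 and 0 of 225 barcodes with Ncr1 alone, which by 3 counts allow shares of up to 1.74% and 1.33% (Clopper-Pearson limits 2.12% and 1.63%). Tcrg-C2 was detected in 0 and 1 of those barcodes, and in 55 and 58 CD3 barcodes with Ncr1. Tcrg-C4 was found in 10 of 172 and 20 of 225 barcodes with Ncr1 alone, against 79 and 78 with CD3 and Ncr1. Among CD3 barcodes without Ncr1 it was in 139 of 2236 (6.22%) and 151 of 3935 (3.84%). Barcodes with Ncr1 alone thus held Trdc at 31.1% to 40.7% while Tcrg-C1 and Tcrg-C2 were at or near 0. Tcrg-C4 was not near 0 in them.

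The gamma V segments separated these classes in the way that Tcrg-C1 and Tcrg-C2 did. At least 1 gamma V segment was detected in 130 of 267 control CD3 barcodes with Ncr1 (48.7%, 42.6 to 54.9) and in 166 of 372 of CD4-Cre (44.6%, 39.5 to 49.8). Barcodes with Ncr1 alone held one in 5 of 172 (2.91%, 0.95 to 6.65) and 4 of 225 (1.78%, 0.486 to 4.49). Of the Trdc-positive barcodes, 76 of 150 and 108 of 193 with CD3 and Ncr1 held a gamma V segment, but only 2 of 70 and 1 of 70 with Ncr1 alone did.

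The delta side did not show that gap. Trdv2-2 was detected in 54 of 172 (31.4%) and 73 of 225 (32.4%) barcodes with Ncr1 alone, and in 23.2% and 26.1% of CD3 barcodes with Ncr1. Trdv4 was detected in 14 and 18 of the barcodes with Ncr1 alone. The delta segment Trav15d-1-dv6d-1, shared with the alpha chain, behaved otherwise: 62 and 73 CD3 barcodes with Ncr1 held it, and 0 and 0 with Ncr1 alone. Trdv1 and Trdv5 were also at 0 in barcodes with Ncr1 alone, and Trdv5 overlaps the end of Trdc on the opposite strand.

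**Figure D1:**
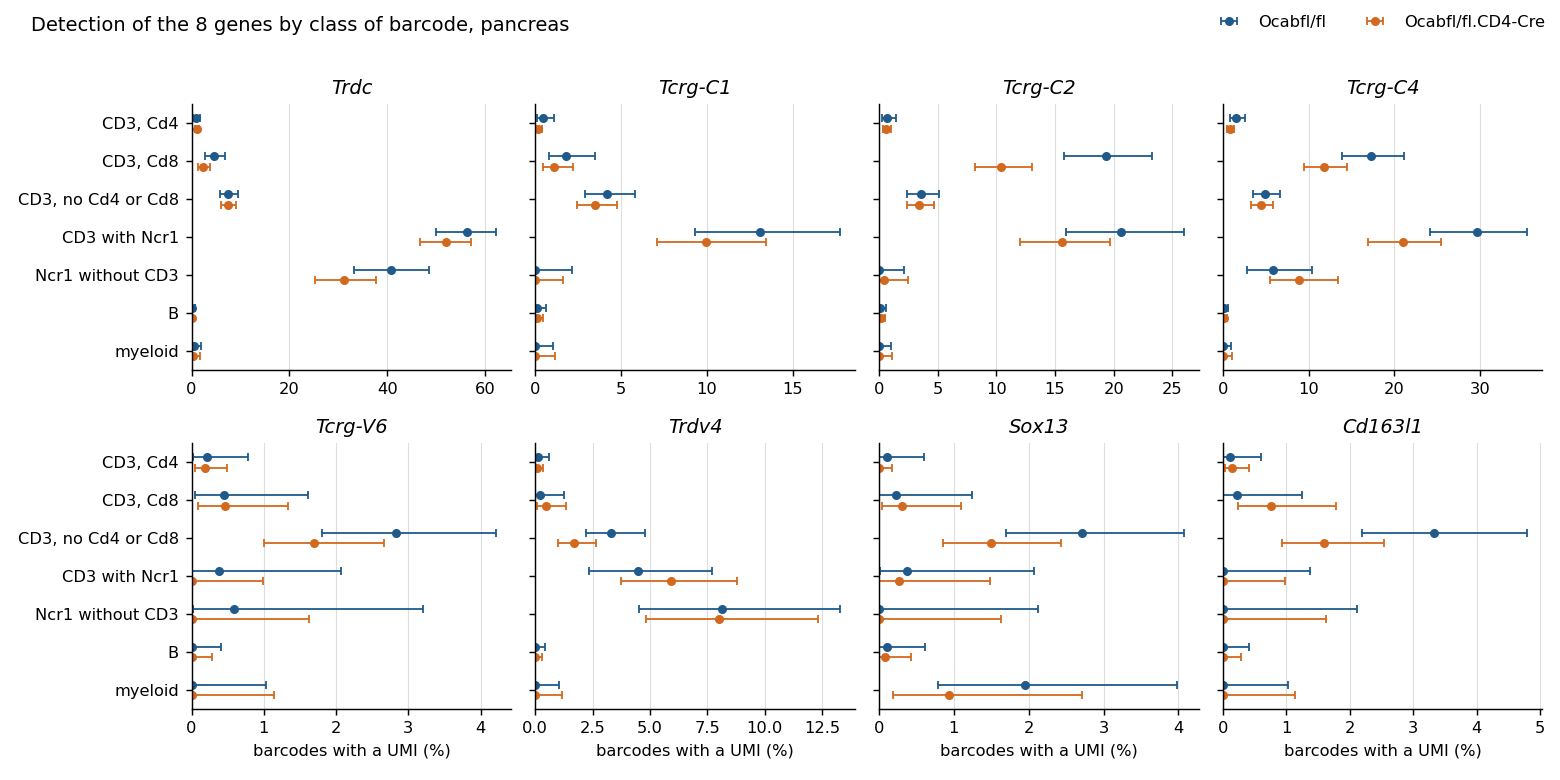
Share of pancreas barcodes with at least 1 UMI of each of the 8 genes (horizontal axis, percent, a scale of its own in each panel), by class of barcode and genotype, unthinned. Points are shares and bars 95% Clopper-Pearson intervals of counting error. Trdc stands at 31.1% to 56.2% in the classes with Ncr1, while Cd163l1 is at 0 in them.

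Within CD3 barcodes, the gamma constant genes were spread over CD8 barcodes as well. Among control CD3 barcodes with Cd8a or Cd8b1 and no Cd4 or Ncr1 UMI, Tcrg-C2 was detected in 86 of 445 (19.3%), Tcrg-C4 in 77 (17.3%), Tcrg-V1 in 83 (18.7%) and Trgv2 in 142 (31.9%). In CD4-Cre these were 68 of 653 (10.4%), 77 (11.8%), 36 (5.51%) and 130 (19.9%). Trdc was in 20 (4.49%) and 15 (2.30%) of the same barcodes, and Tcrg-C1 in 8 (1.80%) and 7 (1.07%). CD4 barcodes held Tcrg-C2 at 0.656% and 0.624%, and barcodes with neither Cd4 nor Cd8 held it at 3.57% and 3.38%. For Tcrg-C4 these shares were 1.53% and 0.817% and then 4.92% and 4.41%. Outside the Ncr1 class, Tcrg-C2 and Tcrg-C4 were therefore seen most often in CD8 barcodes.

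Trac, the alpha-chain constant gene, gives the same contrast from the other side. In the pancreas libraries together, 28.3% of the 554 Trdc-positive CD3 barcodes held Trac, against 56.9% of Trdc-negative ones. Of the 372 Tcrg-C2-positive barcodes, 206 (55.4%) held Trac and 122 (32.8%) held Trdc. Of the 447 Tcrg-C4-positive barcodes, 216 (48.3%) held Trac and 168 (37.6%) held Trdc. Tcrg-C1 stood apart with Trdc in 115 of 167 (68.9%). A UMI of Tcrg-C2 or Tcrg-C4 thus came with Trac more often than with Trdc, but Trac was also the more common gene in CD3 barcodes. Trdc was in 554 of all 6810 pancreas CD3 barcodes, so the higher Trac share is not read as a preference for Trac. Without Ncr1 barcodes, Trdc accompanied Tcrg-C2 in 18.0% and 17.6% and Tcrg-C4 in 29.5% and 20.5% (control, then CD4-Cre).

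Which V segment goes with which C gene was read in pancreas barcodes holding a single kind of gamma V segment. These were 32 of 53 CD3 barcodes with Tcrg-V6, 113 of 439 with Tcrg-V1, 330 of 708 with Trgv2 and 26 of 181 with Tcrg-V4. In the 32 such barcodes with Tcrg-V6, Tcrg-C1 took 50 of 84 constant-gene UMIs (59.5%, 48.3 to 70.1), Tcrg-C4 took 32.1% and Tcrg-C2 took 7.14%. In 113 barcodes with Tcrg-V1, Tcrg-C4 took 55 of 88 (62.5%, 51.5 to 72.6), Tcrg-C2 took 25.0% and Tcrg-C1 took 10.2%. In 330 barcodes with Trgv2, Tcrg-C2 took 228 of 449 (50.8%, 46.1 to 55.5), Tcrg-C4 took 43.0% and Tcrg-C1 took 4.23%. The C gene of the V segment's own cluster led in these 3 sums, but not for the other segments beside Tcrg-C1. In 26 barcodes with Tcrg-V4, Tcrg-C1 took 5 of 25 UMIs (20%, 6.83 to 40.7), Tcrg-C2 took 9 and Tcrg-C4 took 10, and in 4 barcodes with Tcrg-V7, Tcrg-C1 took 0 of 6. In CD4-Cre alone, Tcrg-C2 and Tcrg-C4 took 47.0% and 48.0% of the UMIs with Trgv2, so the lead of Tcrg-C2 did not hold there. The ranges of these UMI shares treat UMIs of the same barcode as independent and are too narrow. Counted by barcodes of both libraries, Tcrg-C1 was in 20 of 32 with Tcrg-V6 (62.5%, 43.7 to 78.9) and Tcrg-C4 in 13 (40.6%, 23.7 to 59.4). With Tcrg-V1, Tcrg-C4 was in 37 of 113 and Tcrg-C2 in 18. With Trgv2, Tcrg-C2 was in 132 of 330 and Tcrg-C4 in 103. A cell with more than 1 transcribed gamma locus and reads assigned to the wrong C or V gene cannot be told apart here.

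**Figure D2:**
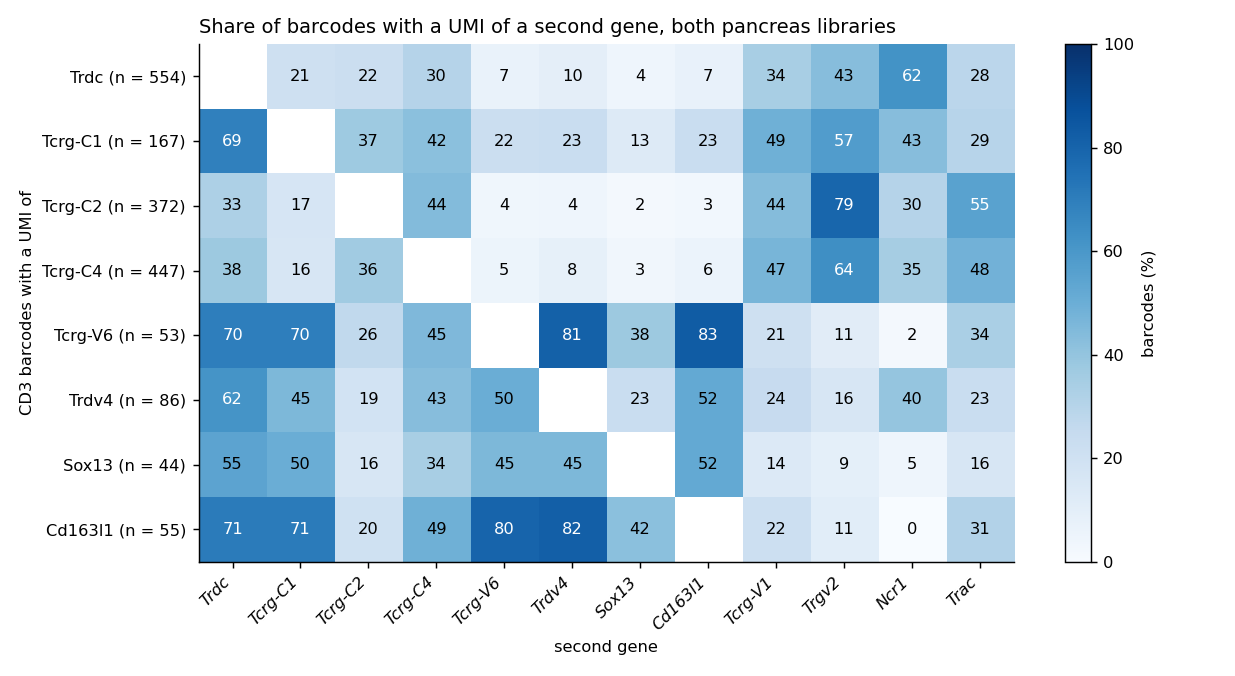
Share (percent, colour and printed number) of the CD3 barcodes positive for the gene of each row that also held the gene of each column, in the 2 pancreas libraries together; n is the number of positive barcodes. Tcrg-V6, Trdv4 and Cd163l1 share most of their barcodes, whereas 61.9% of Trdc barcodes and 0% of Cd163l1 barcodes held Ncr1.

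Tcrg-V6, Trdv4 and Cd163l1 formed the tightest group. In pancreas control, 24 CD3 barcodes held all 3, and in CD4-Cre 19 did. Those are 24 of 28 and 19 of 25 Tcrg-V6 barcodes, 24 of 41 and 19 of 45 Trdv4 barcodes, and 24 of 30 and 19 of 25 Cd163l1 barcodes. None of these triple-positive barcodes held Ncr1. Of the 24, 19 held Trdc, 18 Tcrg-C1, 16 Tcrg-C4, 14 Sox13 and 6 Trac, and of the 19 in CD4-Cre, 16 held Trdc, 16 Tcrg-C1, 7 Tcrg-C4, 5 Sox13 and 6 Trac.

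Partial combinations were few, apart from Trdv4 alone. No barcode held Tcrg-V6 and Trdv4 without Cd163l1 in either pancreas library. Tcrg-V6 was found without the other 2 genes in 4 and 5 barcodes, and Cd163l1 in 4 and 5. Trdv4 was found alone in 15 and 26, of which 12 and 22 held Ncr1.

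Trdv4 was thus detected in a pair of settings that differed in level as well as in partners. In CD3 barcodes without Ncr1, the 29 control barcodes held 207 Trdv4 UMIs (mean 7.14, highest 36) and the 23 of CD4-Cre held 148 (mean 6.43, highest 17). Of these, 24 of 29 and 19 of 23 held Tcrg-V6, and 26 of 29 and 19 of 23 held Cd163l1. In CD3 barcodes with Ncr1, the 12 and 22 positive barcodes held 12 and 28 Trdv4 UMIs, at most 1 and 2 each, and none held Tcrg-V6, Cd163l1 or Sox13. Barcodes with Ncr1 alone held 15 UMIs in 14 and 24 in 18, at most 2 and 4 each, again with no Tcrg-V6 or Cd163l1. A share of barcodes with at least 1 Trdv4 UMI therefore adds up settings with different mean levels. A single UMI was held by 5 of 29 and 4 of 23 barcodes without Ncr1, by 12 of 12 and 16 of 22 with CD3 and Ncr1, and by 13 of 14 and 14 of 18 with Ncr1 alone.

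**Figure D3:**
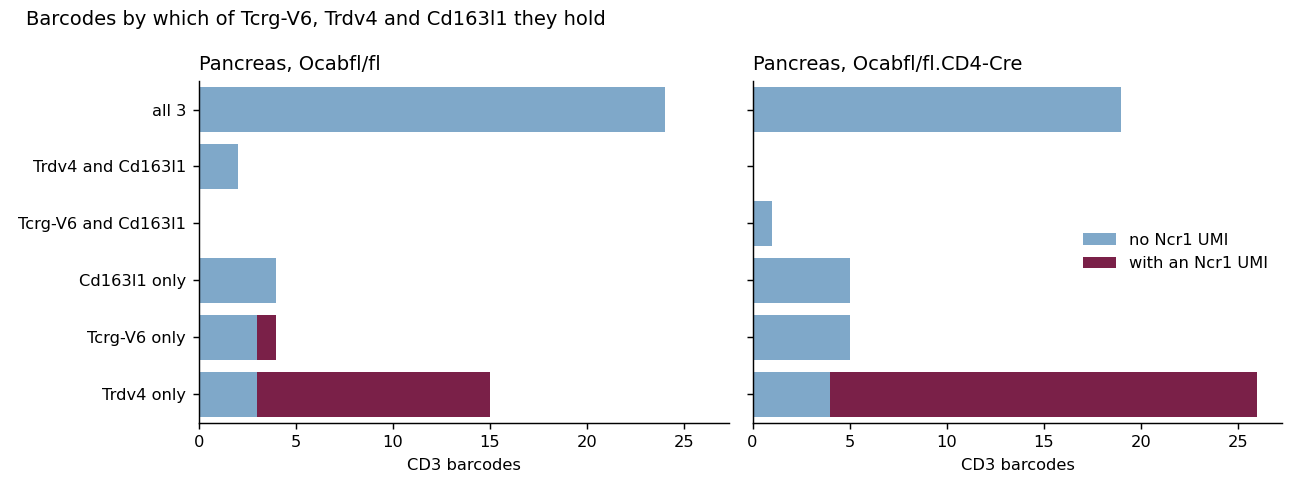
Number of pancreas CD3 barcodes (horizontal axis) by which of Tcrg-V6, Trdv4 and Cd163l1 they hold, for each genotype, with barcodes that also hold an Ncr1 UMI in dark. The all-3 class holds 24 and 19 barcodes and no Ncr1; most barcodes with Trdv4 only hold Ncr1.

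Cd163l1 marked these barcodes with the least spread to other classes. All 30 positive kept barcodes of pancreas control and all 25 of CD4-Cre were CD3 barcodes without Ncr1, and no B-cell or myeloid barcode held it. They held 195 and 175 Cd163l1 UMIs, with means of 6.5 and 7 and at most 16 and 17. Tcrg-V6 was in 24 of 30 (80.0%) and 20 of 25 (80.0%) of them, Trdv4 in 26 and 19, Tcrg-C1 in 21 and 18, Trdc in 23 and 16, Tcrg-C4 in 19 and 8 and Tcrg-C2 in 7 and 4. Other gamma segments were less frequent, with Tcrg-V1 in 5 and 7, Tcrg-V4 in 2 and 3 and Tcrg-V7 in 0 and 0. Trac was in 9 and 8 of the Cd163l1 barcodes, and Cd4 in 2 and 3.

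Sox13 was sparse. In pancreas CD3 barcodes it was detected in 25 (0.999%) in control and 19 (0.441%) in CD4-Cre, with a single UMI in 18 and 16 of them. Myeloid barcodes held it in 7 of 358 (1.96%, 0.790 to 3.99) and 3 of 320, at higher depth. B-cell barcodes held it in 1 of 894 and 1 of 1291, at medians of 3563 and 3426 UMIs against 3508 and 3602 in CD3 barcodes. The Sox13 share over all CD3 barcodes was thus at or below the myeloid share but above the B-cell share. Because the 2 backgrounds differ, Sox13 is not read as a level. Its companions were uneven: among Sox13 barcodes Tcrg-V6 was in 14 of 25 and 6 of 19, Trdv4 in 15 and 5, Tcrg-C1 in 15 and 7 and Trdc in 18 and 6.

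Splitting Sox13 by Cd163l1 separated its receptor partners. All 14 and all 6 Sox13 barcodes with Tcrg-V6, and all 15 and all 5 with Trdv4, were among the 16 and 7 that also held Cd163l1. The 9 and 12 Sox13 barcodes without Cd163l1 held no Tcrg-V6 and no Trdv4, with Trdc in 3 and 1 and Tcrg-C1 in 2 and 1. Their median depths were 9196 and 3452.5 UMIs, against 3903.5 and 4608 in Cd163l1 barcodes. Barcodes with neither gene held Trdc at 8.81% and 6.89%, Tcrg-C1 at 2.44% and 1.52%, Tcrg-C2 at 7.10% and 4.29%, Tcrg-C4 at 8.04% and 5.15%, and Tcrg-V6 in 4 of 2464 and 5 of 4270.

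**Figure D4:**
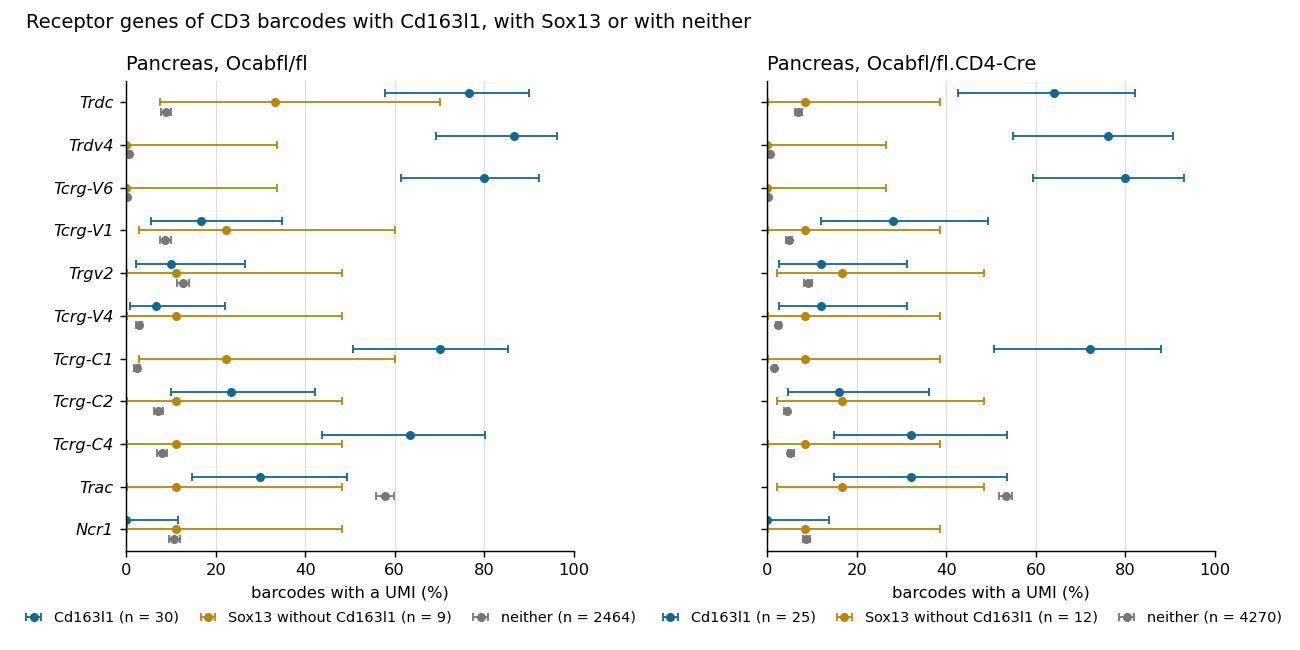
Share of pancreas CD3 barcodes with a UMI of each receptor gene, Trac and Ncr1 (horizontal axis, percent), in barcodes with Cd163l1, with Sox13 but no Cd163l1, and with neither; bars are 95% Clopper-Pearson intervals. Tcrg-V6 stands at 80.0% with Cd163l1 in both libraries and at 0 with Sox13 alone.

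Pancreas barcodes with Sox13 or Cd163l1 also carried genes of the interleukin-17 programme. A list of 25 such genes was compared between the 39 control barcodes with either gene and the 2464 with neither, and between the 37 and 4270 of CD4-Cre, at medians of 4095 against 3502.5 and 4515 against 3595.5 UMIs. Of 23 list genes with at least 20 UMIs in control, 20 were at least 2-fold higher in the first set and 0 lower, with a median log2 ratio of 3.53 against 0 over all 10903 features. Of all those features 10.5% were at least 2-fold higher and 10.5% lower. In CD4-Cre 18 of 21 were higher and 0 lower, with a median of 3.33, where 13.0% of 11500 features were higher and 7.51% lower. The minimum counts both sets together, so a gene that is low elsewhere passes only where it is high in the first set, and the sets were defined by gene detection. These counts and ratios are descriptions and support no further reading. With a minimum of 50 UMIs, 13 of 16 and 15 of 18 list genes were at least 2-fold higher.

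Single genes of the list had the following levels, with log2 ratios of CPM for control and then CD4-Cre. Il1r1, a receptor for interleukin-1, was in 16 of 39 and 12 of 37 barcodes, with ratios of 9.30 and 8.33. In both libraries together 35 of 6810 CD3 barcodes held Il1r1, and 26 of these held Cd163l1. Its ratios therefore rest on few barcodes outside the set and are not read as measured levels. Blk, a kinase known from these cells, was in 26 and 20, with ratios of 5.09 and 4.92. Zbtb16, the factor PLZF of innate-like T cells, had ratios of 5.32 and 5.02, and Maf, a factor of the same programme, had 2.02 and 2.19.

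Cytokine RNA itself was scarce. Il17a was counted with 6 UMIs in 2 control barcodes and 6 UMIs in 4 CD4-Cre barcodes of the set, and Il17f had 0 UMIs in either pancreas library's CD3 barcodes. The receptor Il23r was in 13 of 39 and 7 of 37 barcodes, against 4 barcodes each of the rest. In both libraries together 28 CD3 barcodes held Il23r, and 20 of these held Cd163l1. The receptors Il1r1 and Il23r were thus seen in more barcodes than the cytokines.

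Genes of the interferon-gamma programme and of naive T cells were mostly lower in the same pancreas sets. Of 14 genes of the interferon-gamma programme, 10 in control and 7 in CD4-Cre were at least 2-fold lower and 0 higher, among them Eomes with log2 ratios of -2.52 and -2.82 and Nkg7 with -1.99 and -1.49. Of 7 genes of naive T cells, 7 and 6 were lower, among them the lymph node homing receptor gene Ccr7 with -3.12 and -1.60. Of 6 alpha-beta receptor genes, 4 and 2 were lower and 0 higher, and of 4 CD3 complex genes 0 passed 2-fold in either direction, with medians of 0.29 and 0.21. Of the 6 NK markers, 3 and 4 were lower and 0 and 1 higher. Of the 4 markers of type 2 innate lymphoid cells, 1 and 2 were higher and 0 lower, among them Rora, which is also on the interleukin-17 list. Of the 4 myeloid markers, 1 was higher and 2 lower in control while 4 of 4 were higher in CD4-Cre, with Lyz2 in 8 of 39 and 6 of 37 barcodes. B-cell markers were lower in 3 of 4 and 2 of 4. The part of RNA from these other cell types in the ratios was not tested. In the lymph node the sets held 9 and 18 barcodes, and there 3 of 9 and 5 of 12 interferon-gamma list genes were higher and 0 lower. Of the interleukin-17 list, 5 of 15 and 8 of 15 were higher and 0 and 1 lower, with medians of 0.01 and 1.08. Over all features there, 1383 of 10213 and 1147 of 10596 were higher, and 652 and 591 lower.

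By detection across the 6810 pancreas CD3 barcodes of both libraries, the non-member genes most like Cd163l1 were Il1r1 (phi 0.59), Abi3bp (0.55) and Kcnk1 (0.55), where phi is the correlation of 2 yes-or-no values. Sox13 was most like Mmp25 (0.44) and Abi3bp (0.38). Those most like Trdc were Ncr1 (0.54), Fcer1g (0.46), the Fc receptor gamma chain, and the chemokine gene Xcl1 (0.46). Among members, phi was 0.81 for Tcrg-V6 with Cd163l1, 0.65 for Trdv4 with Cd163l1 and 0.63 for Tcrg-V6 with Trdv4. These barcodes share libraries and differ in depth, so the values are descriptions.

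In the lymph node the members were rarer and Ncr1 was nearly absent. Trdc was detected in 28 of 2727 CD3 barcodes in control (1.03%) and in 96 of 5252 in CD4-Cre (1.83%). A gamma V segment accompanied Trdc in 15 of the 28 and 49 of the 96. Tcrg-V6 was in 5 and 9 barcodes, Trdv4 in 0 and 2, Cd163l1 in 0 and 5 and Sox13 in 9 and 14. Of the Sox13 barcodes, 0 of 9 and 2 of 14 held Trdc, 0 and 1 held Tcrg-V6, and 6 and 8 held Trac. A single barcode, in CD4-Cre, held Tcrg-V6, Trdv4 and Cd163l1 together, and it also held Trdc, Tcrg-C1 and Sox13. The other 4 Cd163l1 barcodes all held Trac and none held Trdc.

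The last comparison set the CD4-Cre library against control over CD3 barcodes. In the pancreas all 8 members were counted at a lower level in CD4-Cre, where the median log2 ratio over all features was 0.004. The share of all features below 0 is not given here. The members are not 8 separate results, because 24 control and 19 CD4-Cre barcodes held Tcrg-V6, Trdv4 and Cd163l1 together. The intervals of the UMI ratios lay below 0 for all 8, but those of the thinned barcode shares included 0 for Trdv4 (-0.39 percentage points, -0.88 to 0.02) and Sox13 (-0.11, -0.38 to 0.08). Trdc fell from 55.9 to 38.6 CPM (608 and 739 UMIs), a log2 ratio of -0.54 (-0.69 to -0.38, from the exact binomial split of the UMIs). Among the gamma constant genes the ratios were -1.10 for Tcrg-C1 (-1.44 to -0.76), -0.65 for Tcrg-C2 (-0.89 to -0.41) and -0.59 for Tcrg-C4 (-0.80 to -0.38). The V segments had -0.87 for Tcrg-V6 (-1.27 to -0.47) and -1.13 for Trdv4 (-1.43 to -0.84). With equal weight per barcode Trdc had -0.81 and Tcrg-C2 had -1.09, and without Ncr1 barcodes Trdc had -0.89. Sox13, whose share lay at or below the myeloid one, had -1.40 (-2.25 to -0.58), from 33 and 22 UMIs, and Cd163l1 had -0.97 (-1.28 to -0.67).

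Of the 8 members, 3 had ratios at least 2-fold lower (Tcrg-C1, Trdv4 and Sox13, the last not read as a level) and 0 at least 2-fold higher, where 2.32% of 12175 features were lower and 1.42% higher by that fold. Other segments went both ways. Tcrg-V1 had -0.67 (-0.87 to -0.48), Trav15d-1-dv6d-1 had -0.48 (-0.78 to -0.18) and Trgv2 had -0.19 (-0.31 to -0.07). Tcrg-V4 had -0.09 with an interval across 0, while Trdv2-2 had 0.60 (0.35 to 0.86) and Trdv1 had 0.84 (0.45 to 1.25). Most members come from few barcodes, so these intervals, which treat UMIs as independent, are too narrow. As unthinned shares of CD3 barcodes without Ncr1, Trdc differed by -1.16 percentage points (-2.19 to -0.21) and Tcrg-V6 by -0.57 (-1.15 to -0.09). For Cd163l1 the difference was -0.71 (-1.31 to -0.21) and for Trdv4 -0.71 (-1.30 to -0.22), all by Newcombe intervals. After thinning, Trdv4 without Ncr1 had -0.58 (-1.11 to -0.16), while Sox13 had -0.08 (-0.37 to 0.12).

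The make-up of the CD3 barcodes differed between these libraries as well. CD4 barcodes were 915 of 2503 in control and 2082 of 4307 in CD4-Cre, and barcodes with no Cd4, Cd8a or Cd8b1 UMI and no Ncr1 UMI were 813 and 1065. Within the latter, Trdc was detected in 7.50% and 7.42%, Tcrg-C1 in 4.18% and 3.47%, Tcrg-V6 in 2.83% and 1.69%, Trdv4 in 3.32% and 1.69%, and Cd163l1 in 3.32% and 1.60%. The Trdc shares in that class were thus nearly equal, while the Trdv4 and Cd163l1 shares were lower in CD4-Cre. Which part of the ratios over all CD3 barcodes comes with the make-up was not tested.

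**Figure D5:**
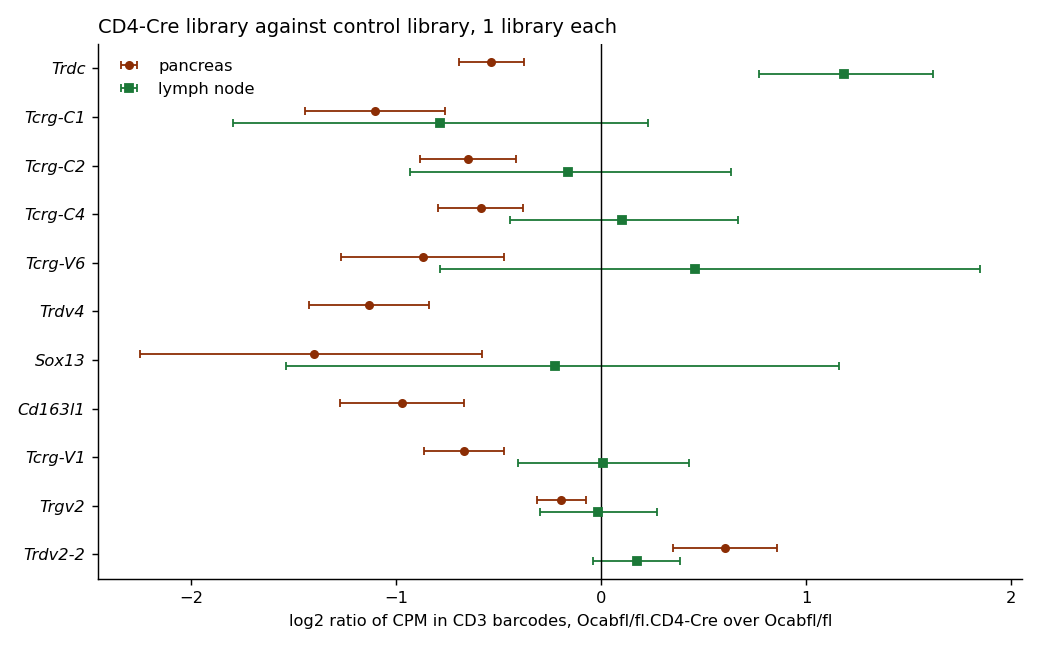
Log2 ratio of CPM in CD3 barcodes, Ocabfl/fl.CD4-Cre over Ocabfl/fl (horizontal axis), for the 8 genes and 3 further V segments in pancreas and lymph node; bars are 95% intervals from the binomial split of UMIs. No lymph node point is drawn for Trdv4 and Cd163l1, which had 0 UMIs in control. The UMI ratios of all 8 genes, several of them counted in the same barcodes, lie below 0 in the pancreas, and Trdc lies at 1.18 in the lymph node.

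In the lymph node only Trdc had an interval that excluded 0 among the 6 members counted in both libraries. It was counted at 4.26 CPM in control (59 UMIs) and 9.68 in CD4-Cre (244 UMIs), a log2 ratio of 1.18 (0.77 to 1.62). Tcrg-C1 had -0.79, Tcrg-C2 -0.16, Tcrg-C4 0.10, Tcrg-V6 0.46 and Sox13 -0.23, all with intervals across 0. Trdv4 had 0 and 15 UMIs, the 15 in 2 barcodes, and Cd163l1 had 0 and 13, the 13 in 5. The median ratio over all features was -0.10 in the lymph node and 0.00 in the pancreas. Trdv4 and Cd163l1 fell below the minimum of 20 UMIs over both libraries, so no call was made for them. Of the other 6 members, 1 was at least 2-fold higher and 0 at least 2-fold lower, where 0.564% of 11164 features were higher and 2.62% lower.

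The lymph node Trdc barcodes were mostly outside the CD4 class in both libraries. Among barcodes with no Cd4, Cd8a or Cd8b1 UMI, Trdc was in 12 of 626 in control (1.92%, 0.994 to 3.32) and in 42 of 814 in CD4-Cre (5.16%, 3.74 to 6.91). A gamma V segment was detected in 3.83% and 7.002% of the same barcodes. CD8 barcodes held Trdc at 1.01% and 1.98%, and CD4 barcodes at 0.625% and 0.781%. Mitochondrial UMIs took over 10% in 1.01% of the listed control barcodes and 9.39% of those of CD4-Cre, and the part of this in the Trdc difference was not tested.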

How the data were processed

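Per the labels' protocols, libraries were made with a 10x Genomics 5′ kit. Per the submitters' processing notes, Cell Ranger and mm10 were used, and per the file headers the matrices carry software version 3.0.0. The deposited values are counts of UMIs per gene and barcode, whole numbers with no normalization; the aligner settings are not given in the sources used here. Total counts were 20807342 and 32798133 UMIs in pancreas control and CD4-Cre, and 14851217 and 27830077 in the lymph node.

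Barcodes with at least 500 genes and at most 10% mitochondrial UMIs were kept, and the highest doublet scores (scanpy 1.11.5, 0.8% per 1000 barcodes) were removed: 164, 388, 75 and 341. B barcodes held at least 2 UMIs of B markers and myeloid barcodes at least 3 of myeloid markers, with no CD3 or Ncr1 UMI. Shares were also taken after thinning to 1000 UMIs. CPM are sums over a class; ratios need 20 UMIs over both sides, and a called ratio is 2-fold. A sum of 0 takes a floor of 3 counts. Scaling alternatives used edgeR 4.0.16 and DESeq2 1.42.0; scipy 1.17.1 gave the intervals. The ratio intervals were tried on simulated independent counts, and that trial does not cover UMIs clustered in few barcodes.

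Named genes are the 8 members, the other gamma and delta segments, the genes of the lists, and the 3 non-members with the highest phi for Trdc, Sox13 and Cd163l1 among features in at least 20 pancreas CD3 barcodes; 1 gene that this rule names is not reported here. The members and lists were chosen with earlier results of these data known. There were 14 processing alternatives. Gene positions are from GENCODE M21 (GRCm38), where 30934 of 31053 feature identifiers matched.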

Additional observations from a re-analysis of the deposited data

Results flagged for a closer look

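The CD4-Cre over control ratio of Trdc in CD3 barcodes went in opposite directions in the tissues, with a log2 ratio of -0.54 in the pancreas and 1.18 in the lymph node. With 1 library per group the difference between the tissues was not tested, and tissue, age and cell selection differ together.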

How the results depend on the processing

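Over 124 results, 14 alternatives gave 918 values, of which 760 stayed within the interval or spread of the reported value, 158 moved and 0 reversed. Doublet removal, all barcodes listed, at least 2 CD3 UMIs and both scaling methods moved none; TMM and DESeq2 shifted lymph node log2 ratios by 0.11 and 0.11. The Trdc share depends on depth and on the UMI minimum, as follows, against thinned shares of 4.22% and 2.26% (pancreas CD3 barcodes, control then CD4-Cre), 0.295% and 0.670% (lymph node) and 18.7% and 12.6% (NK barcodes). With at least 2 UMIs it was 1.41% and 0.607%, 0.0736% and 0.230%, and 3.46% and 2.18%; thinned to 2000 UMIs, 6.44% and 4.37%, 0.641% and 1.02%, and 29.9% and 26.4%; unthinned, 9.71% and 7.22%, 1.03% and 1.83%, and 50.1% and 44.1%. Without Ncr1 barcodes the CD3 shares were 2.29% and 1.05%, and NK barcodes without CD3 gave 8.48% in CD4-Cre. The Trdc share difference became -0.80 points in the pancreas with at least 2 UMIs and 0.80 points in the lymph node unthinned. Tcrg-V6 in CD4-Cre Sox13 barcodes became 100% with at least 2 UMIs, from 3 Sox13 barcodes (29.2 to 100). In control, 13 of 16 interleukin-17 list genes were higher with a minimum of 50 UMIs. With no minimum, features at least 2-fold higher and lower numbered 445 and 971 in the pancreas and 292 and 971 in the lymph node, against 173, 282, 63 and 292; fewer features tested is part of each minimum. No paired analysis was possible because each group has 1 library.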

Other observations

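Other V segments also differed in how often they came with Ncr1 in pancreas CD3 barcodes. Tcrg-V4 was detected in 47 of 267 control CD3 barcodes with Ncr1 (17.6%) and 60 of 372 of CD4-Cre (16.1%), against 25 of 2236 (1.12%) and 49 of 3935 (1.25%) without Ncr1. Trav15d-1-dv6d-1 had 62 (23.2%) and 73 (19.6%) with Ncr1, against 16 (0.716%) and 40 (1.02%) without. Trdv1 was in 22 and 46 barcodes without Ncr1 and in 2 and 2 with it, shares of 0.984% and 1.17% against 0.749% and 0.538%. With 2 barcodes in each library, no difference between the classes is read for Trdv1. None of the Cd163l1 barcodes held Trdv1 or Trav15d-1-dv6d-1 in either pancreas library.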
